A study of Mus musculus with 2 samples.

Results

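Cytochrome c oxidase, complex IV of the mitochondrial respiratory chain, was examined through 10 nuclear genes for its subunits. The genes were chosen by name as pairs or members of tissue isoforms, with earlier results of these data known. The probes were those whose RefSeq accession maps to a listed symbol. All 10 genes had a usable probe on both arrays, 11 probes in all, among 15495 genes measured. They comprised 6 ubiquitous subunits (Cox4i1, Cox5a, Cox6a1, Cox6b1, Cox7a2 and Cox8a), 3 isoforms of heart, muscle and brown fat (Cox6a2, Cox7a1 and Cox8b), and Cox4i2, the isoform known from lung.

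RNA came from whole lung, 14 days after bleomycin at 1.25 mg/kg was given into the trachea. The transgenic group was 1 sample from a C57BL6/N mouse line overexpressing heat shock protein 27 (HSP27, gene Hspb1), and it was set against 1 sample from C57BL6/N, whose label names no transgene. Both were labelled male and 6 weeks old, both had received bleomycin, and no lung without bleomycin was analysed here. The promoter and species of the transgene, and whether animals were pooled, are not given in the sources used here.

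Cytochrome c oxidase passes electrons from cytochrome c to oxygen and pumps protons while doing so. Its catalytic core is encoded in mitochondrial DNA, and nuclear subunits surround that core, set its activity and help its assembly. Several nuclear subunits exist as a ubiquitous form and a form restricted to certain tissues. The restricted forms of subunits 6a, 7a and 8 are known from heart, skeletal muscle and brown fat. The restricted form of subunit 4 is known from lung, where it is found in vascular smooth muscle and pericytes and takes part in oxygen sensing. In mice Cox8b encodes a working subunit, whereas its human counterpart is a pseudogene.

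Each group was 1 array, so the spread between animals is unknown, no test between groups was possible and no p-value is given. Processed signals were put on a log2 scale relative to the 75th percentile of the array, which was 1426 on the transgenic array and 1287 on the C57BL6/N array. Differences are transgenic minus C57BL6/N on this log2 scale. The number after ± is a repeat-spot SD, the spread of the difference when single spots are compared. It came from 104 repeatedly printed probes of like brightness, taken as the mean of both arrays, and covers technical spread alone. Different probes of a gene spread further: among 3413 genes with 2 usable probes the gap between the probes' differences had a median of 0.24 and a 95th percentile of 0.91. Brightness depends on the probe, so signals are compared between arrays and never between genes. The mouse probe of Hspb1, the gene of the transgene, read 53554 on the transgenic array and 41040 on the C57BL6/N array, at 0.24 ± 0.08. The upper quartile over all genes was also 0.24, so this value does not set Hspb1 apart. The lung markers Sftpc, Ager and Scgb1a1 were bright on both arrays. Against the labels, the female transcript Xist read 2.83 on the transgenic array, below the flag for well above background, and 521 on the C57BL6/N array. The Y-linked Ddx3y read 2437 on the transgenic array and 508 on the C57BL6/N array. Sex-linked RNA, transgene and every difference below fall between the same 2 arrays and cannot be told apart.

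The upstream regions are shown for the isoform pairs whose differences were furthest apart, Cox8b with Cox8a and Cox7a1 with Cox7a2. Each is the 250 bases before the start site in the RefSeq promoter table (build GRCm38.p6), 5′ to 3′ on the strand of the gene. Cox8b lies at chr7:140900447-140900696 (minus strand), Cox7a1 at chr7:30183921-30184170 (plus), Cox8a at chr19:7217617-7217866 (minus) and Cox7a2 at chr9:79759854-79760103 (minus). Capitals mark E-boxes (CANNTG, bound by myogenic and other factors), CCAAT boxes and GC boxes of the Sp1 type (GGGCGG), searched on both strands.
Cox8b: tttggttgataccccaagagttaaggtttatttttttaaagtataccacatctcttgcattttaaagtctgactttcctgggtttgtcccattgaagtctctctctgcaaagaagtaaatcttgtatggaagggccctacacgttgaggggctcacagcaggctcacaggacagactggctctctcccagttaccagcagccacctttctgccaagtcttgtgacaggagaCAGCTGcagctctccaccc
Cox7a1: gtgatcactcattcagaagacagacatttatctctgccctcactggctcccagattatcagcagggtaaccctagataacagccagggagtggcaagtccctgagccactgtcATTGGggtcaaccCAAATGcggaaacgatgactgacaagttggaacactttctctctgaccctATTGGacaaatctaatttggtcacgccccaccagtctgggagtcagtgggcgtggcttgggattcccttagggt
Cox8a: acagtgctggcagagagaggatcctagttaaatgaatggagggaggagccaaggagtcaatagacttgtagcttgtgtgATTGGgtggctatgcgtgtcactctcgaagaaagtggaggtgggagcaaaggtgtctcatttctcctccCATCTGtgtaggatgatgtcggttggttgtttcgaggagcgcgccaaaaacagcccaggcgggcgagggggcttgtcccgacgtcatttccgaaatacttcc
Cox7a2: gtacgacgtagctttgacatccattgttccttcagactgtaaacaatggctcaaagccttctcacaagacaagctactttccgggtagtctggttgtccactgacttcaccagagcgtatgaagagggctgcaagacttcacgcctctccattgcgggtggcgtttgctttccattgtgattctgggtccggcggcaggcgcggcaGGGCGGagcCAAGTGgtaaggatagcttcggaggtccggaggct

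The windows of Cox8b and Cox7a1 held 1 and 4 CpG dinucleotides, against 11 in Cox8a and 14 in Cox7a2. Cox6a2, Cox4i1 and Cox4i2 had no window in the promoter table. As few or fewer CpG were found in 18.8% of all windows for Cox8b and in 44.4% for Cox7a1. The median over 32851 windows of the same length was 6. Of the other ubiquitous subunits in the table, Cox6b1 had 14 and Cox5a and Cox6a1 had 26 each. GC content was 47.2% for Cox8b and 51.2% for Cox7a1, against 52.8% for Cox8a and 54.8% for Cox7a2. Each of the 4 windows had 1 E-box, ending 14 bases before the start site in Cox8b and 119 bases before it in Cox7a1. E-boxes occurred in 66.2% of all windows. CCAAT boxes were found at 2 places in Cox7a1 and 1 in Cox8a (33.8% of all windows), and a GC box in Cox7a2 (32.7%). The ERR half-site AAGGTCA (4.08% of all windows), TATAAA (12.4%), and the MEF2 motif (1.69%) had no match in any of the 7 members' windows searched. The NRF1 motif (4.98%) had 2 matches, both in Cox6a1, and these motif counts are a description of letters alone.

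Both differences past 1.5-fold belonged to isoforms of muscle and brown fat. Cox8b and Cox7a1 were higher on the transgenic array, and no member was 1.5-fold lower. That is 2 of 10 members higher, against a background over all 15495 genes of 10.2% higher and 8.31% lower by 1.5-fold or more. The same 2 members were past 2-fold, where the background was 3.81% higher and 1.87% lower. With 10 genes, these counts alone do not set the members apart from the background. Among all genes past 1.5-fold 55.1% were higher, a share that was 66.5% after cyclic loess normalization.

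Cox8b, the muscle form of the small subunit 8, read 1741 on the transgenic array and 334 on the C57BL6/N array. The signal was far above the lowest signal called well above background, 12.5 on the transgenic array and 11.9 on the C57BL6/N array. After scaling, its log2 difference was 2.24 ± 0.09, or 4.71-fold higher. Counting Cox8b itself, 98 of the 15495 genes (0.632%) had a difference this high. In whole lung, more cells of a type and more RNA per cell cannot be told apart. Its ubiquitous partner Cox8a had 2 probes, which read 97692 and 71016 on the transgenic array against 90847 and 54589 on the C57BL6/N array. Their differences were -0.04 and 0.23, with a mean of 0.09. The gap between these probes exceeds the repeat-spot SD of 0.08, although that SD is for the difference of a single probe and not for a gap. It lies near the median gap for genes with 2 probes. The difference of Cox8b exceeded that of Cox8a by 2.14 ± 0.11 on the log2 scale, a 4.41-fold shift of the muscle form relative to the ubiquitous form.

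Cox7a1, the heart and muscle form of subunit 7a, read 2734 on the transgenic array and 1209 on the C57BL6/N array. It was 2.04-fold higher after scaling, a log2 difference of 1.03 ± 0.09 that 560 genes (3.61%), itself included, reached. Its partner Cox7a2, the form found in all tissues, read 22457 on the transgenic array and 19987 on the C57BL6/N array, a difference of 0.02 ± 0.08. The difference of Cox7a1 exceeded that of Cox7a2 by 1.01 ± 0.12 on the log2 scale. In the gene table Tmem30a overlaps Cox7a2, and its own probe was at -0.02.

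Cox6a2, the heart and skeletal muscle form of subunit 6a, did not share the shift of Cox8b and Cox7a1. It read 5161 on the transgenic array and 4282 on the C57BL6/N array, a log2 difference of 0.12 ± 0.08 (1.09-fold). A difference as high or higher was found in 34.1% of genes. The ubiquitous Cox6a1 read 183148 on the transgenic array and 149743 on the C57BL6/N array, at 0.14 ± 0.08. The difference of Cox6a2 minus that of Cox6a1 was -0.02 ± 0.12. The differences of Cox6a2 and its ubiquitous partner were thus within technical spread of each other, and the Cox6a2 probe was bright on the C57BL6/N array as well. In the gene table Itgad, an integrin chain of macrophages, overlaps Cox6a2. Its probe read 26.0 on the transgenic array and 16.6 on the C57BL6/N array, and whether its transcripts reach the Cox6a2 probe was not tested.

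**Figure D1:**
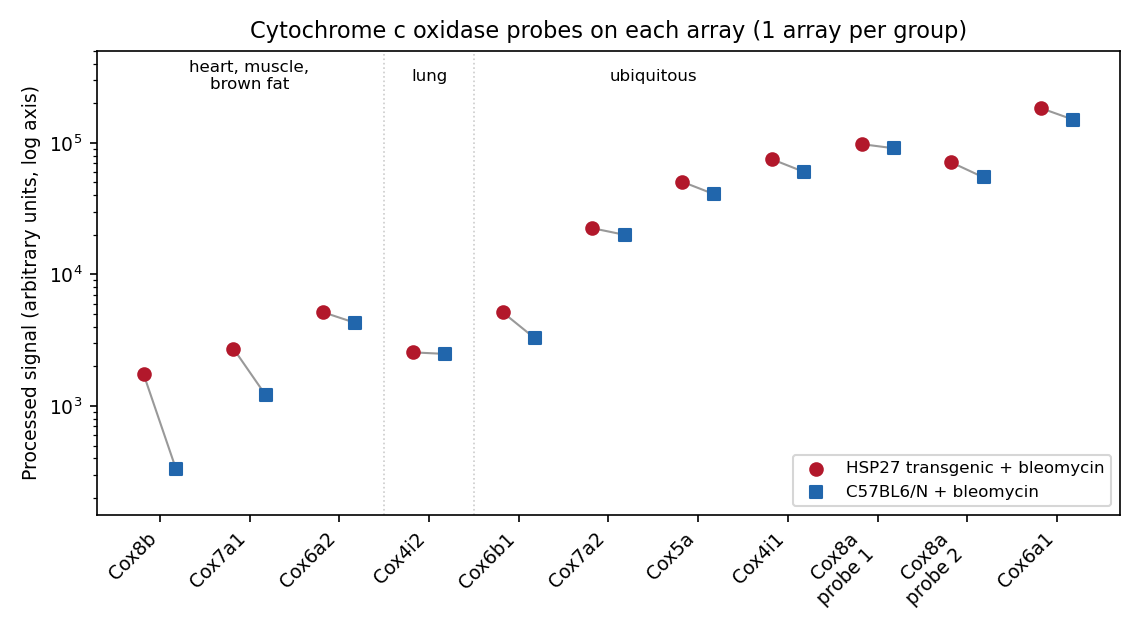
Processed signal (log axis) of each probe of the 10 subunit genes on the HSP27 transgenic array (red circles, left) and the C57BL6/N array (blue squares, right), 1 array per group. Cox8b (1741 against 334) and Cox7a1 (2734 against 1209) have the steepest lines. Heights are not comparable between genes.

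Cox4i2, the lung isoform of subunit 4, differed little between the arrays. It read 2559 on the transgenic array and 2491 on the C57BL6/N array, which after scaling gave -0.11 ± 0.09 (0.927-fold). It was the only member with a difference below 0 in this processing. Its ubiquitous partner Cox4i1 read 75066 on the transgenic array and 60053 on the C57BL6/N array, at 0.17 ± 0.08. The value of Cox4i2 minus Cox4i1 was -0.28 ± 0.12, where ± covers repeat spots alone. Its size lies near the median gap of 0.24 between 2 probes of a gene, so it does not set these isoforms apart. The overlapping gene Bcl2l1, a survival factor, was at -0.29 over 2 probes, and its part in the Cox4i2 signal was not tested.

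Cox4i2 and the oxygen-related pericyte transcripts Higd1b and Ndufa4l2 differed little between the arrays. All of them lay between the lower and upper quartiles over all genes, -0.29 and 0.24. Their closeness to each other therefore does not set them apart from other genes. Higd1b, a mitochondrial protein typical of lung pericytes, read 15895 on the transgenic array and 14777 on the C57BL6/N array, at -0.04 (0.01 with median scaling). Ndufa4l2, a hypoxia-inducible relative of the complex IV subunit Ndufa4, was at 0.02. Besides Cox4i2, 12 pericyte genes were measured, and their median was -0.01 (0.04 with median scaling). At 1.5-fold, 2 of them were higher and 0 lower. The higher ones were Rgs5, a regulator of G protein signalling, at 1.27 and Kcnj8, a potassium channel subunit, at 0.76 (0.52 with normexp, short of 1.5-fold). The summed signal of a list, here and below, used all probes of its genes, dim ones included, in units of the 75th percentile. For the pericyte list it was 48.8 on the transgenic array and 51.7 on the C57BL6/N array. Smooth muscle genes, also of the vessel and airway wall, had a median of 0.88, and 7 of 12 were past 1.5-fold upward, 0 downward. Cnn1, the contractile protein calponin, was at 1.91 and Actg2, a smooth muscle actin, at 1.64.

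The 6 ubiquitous subunits moved less than Cox8b and Cox7a1. Their differences ran from 0.02 to 0.51 with a median of 0.16, against a median of -0.04 over all genes, and 0 of 6 passed 1.5-fold. All 6 were above 0, as were 46.0% of all genes. The sign of 2 of these depended on the processing: Cox7a2 was at -0.02 after quantile normalization and Cox8a at -0.04 with its brightest probe alone. Cox6b1, a subunit facing the space between the mitochondrial membranes, stood highest. It read 5167 on the transgenic array and 3270 on the C57BL6/N array, at 0.51 ± 0.08 (1.43-fold). Cox5a, a matrix-facing subunit, read 50608 on the transgenic array and 40625 on the C57BL6/N array, at 0.17 ± 0.08. Apart from Cox6b1, the ubiquitous subunits lay within the middle 50% of genes, from -0.29 to 0.24.

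**Figure D2:**
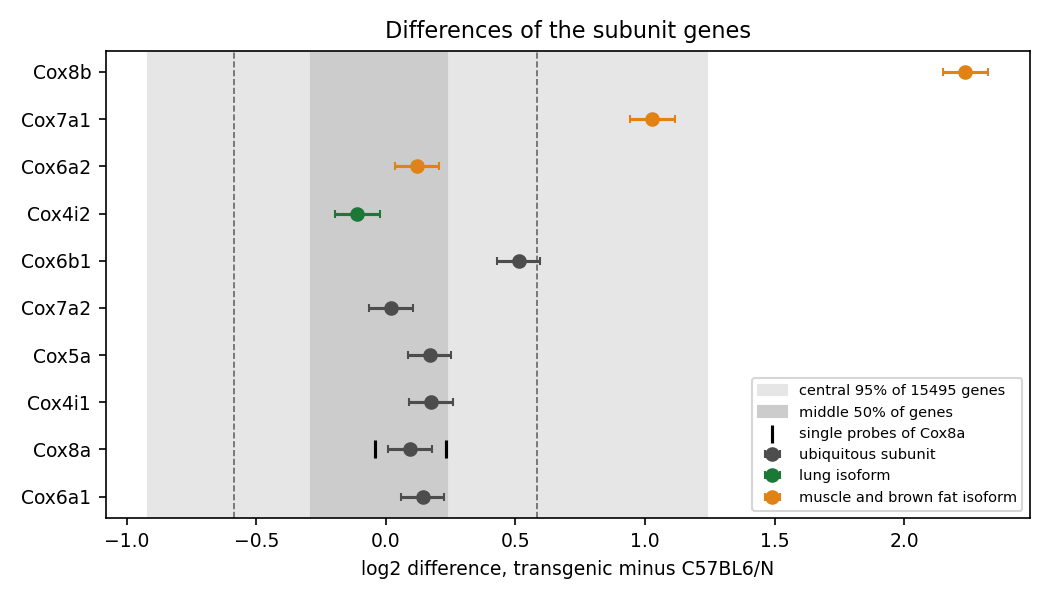
Log2 difference, transgenic minus C57BL6/N, of each subunit gene with the repeat-spot SD of a single spot (bars), over the central 95% (light grey, -0.92 to 1.24) and the middle 50% (dark grey, -0.29 to 0.24) of 15495 genes. Dashed lines mark 1.5-fold. Cox8b alone lies outside the light band, and Cox6a2 and Cox4i2 lie in the dark band with most ubiquitous subunits.

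The other subunits of the complex were centred near 0. Of 9 such genes, both arrays measured 7, whose median was 0.02 (-0.01 with the brightest probe of each gene). At 1.5-fold 1 was higher and 0 were lower. That gene was Cox6b2, known as the testis form of subunit 6b, which read 3134 on the transgenic array and 1773 on the C57BL6/N array, at 0.67. Cox5b, at 0.38, was next. The testis forms Cox7b2 and Cox8c were not well above background on either array. The core subunits encoded in mitochondrial DNA had no matched probe and were not analysed here.

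Assembly factors of the complex went both ways. Both arrays measured 19, whose median was 0.07. At 1.5-fold 2 were higher and 0 lower. Coa7 was at 0.72, but its 2 probes disagreed, at -0.67 and 2.12. With normexp, a model-based background correction, it was at 0.52. Cox10, an enzyme of haem A synthesis, was at 0.64 and dim, with 31.9 on the transgenic array and 18.5 on the C57BL6/N array. It was at 0.12 with normexp, so neither assembly factor was past 1.5-fold upward there. Cox17, the copper chaperone of the complex, read 8.27 on the transgenic array, below the same flag, and 21.8 on the C57BL6/N array, at least 1.93-fold lower. Surf1, an assembly factor of the core, was at 0.27 and the copper carrier Sco2 at 0.22. Lowest of the 19 was Cox16 at -0.57, short of 1.5-fold, and its 2 probes disagreed, at -1.25 and 0.12.

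Other complexes of the chain lay near the same level. The median of complex I genes was 0.07, and 3 of 36 were past 1.5-fold upward, 0 downward. Among them were Ndufs8, an iron-sulphur subunit, at 1.25 and Ndufa11 at 0.96. That of complex II genes was 0.07, and 0 of 4 passed 1.5-fold in either direction. Complex III and cytochrome c genes were centred at 0.10, and 1 of 10 passed 1.5-fold upward, 0 downward. This was Cyc1 (cytochrome c1) at 0.63. ATP synthase genes were centred at 0.20, and 0 of 15 passed 1.5-fold. Genes of mitochondrial biogenesis and content were centred at 0.00, and 1 of 18 passed 1.5-fold upward, 0 downward. This was the ADP/ATP carrier Slc25a5 at 1.51. Ppargc1a, a coactivator that drives mitochondrial biogenesis in muscle and brown fat, was at 0.03. Cox8b, at 2.24, was above every measured gene of these respiratory chain, assembly and biogenesis lists, and Cox7a1, at 1.03, was above all of them but Ndufs8 and Slc25a5.

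**Figure D3:**
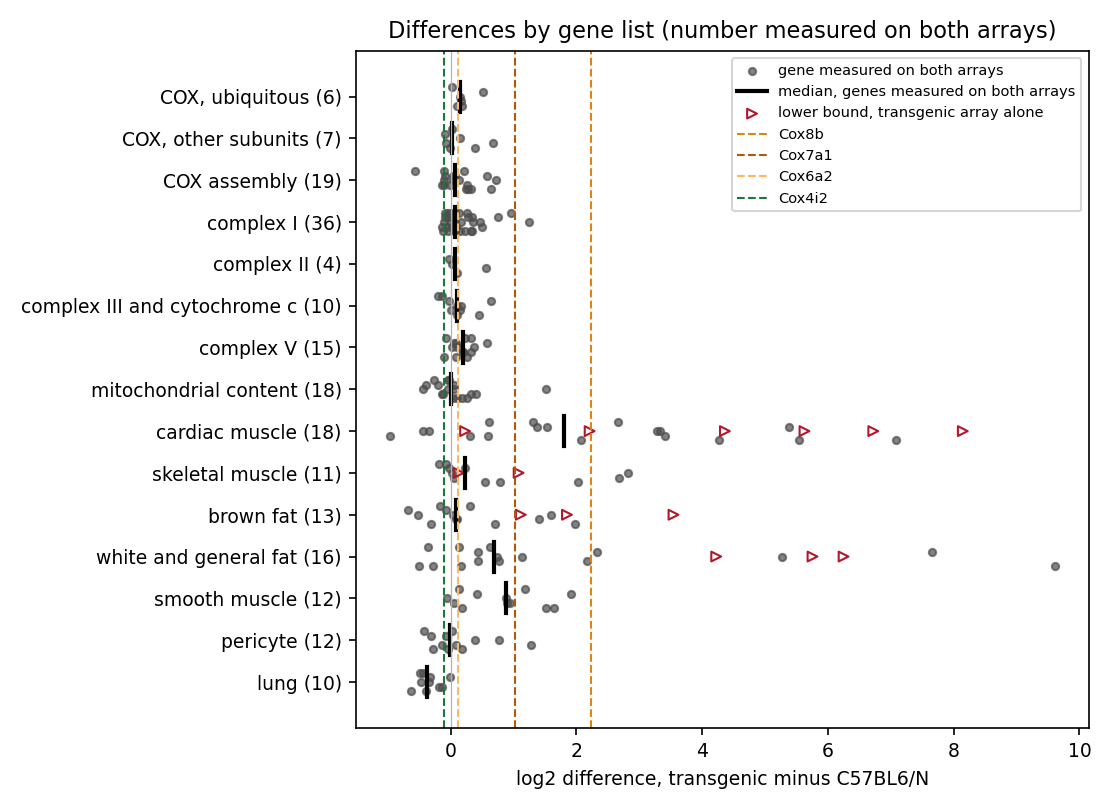
Log2 difference of each gene measured on both arrays, by list, with the median (black bar), lower bounds of genes above background only on the transgenic array (open triangles), and dashed lines at Cox8b (2.24), Cox7a1 (1.03), Cox6a2 (0.12) and Cox4i2 (-0.11). Respiratory chain lists have medians between 0.02 and 0.20, cardiac muscle 1.80, and the subunit genes themselves are left out of the tissue lists.

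Heart muscle transcripts were higher on the same array as Cox8b and Cox7a1. Both arrays measured 18 cardiac genes, whose median was 1.80. It was 1.36 with normexp and 2.97 when dim probes were kept. Past 1.5-fold there were 14 higher and 1 lower. The transgenic array alone measured 6 more. With those 6 at their bounds the median was 2.43. The summed signal of the list, dim probes included, was 33.8 on the transgenic array and 9.34 on the C57BL6/N array, in units of the 75th percentile. Myh6, the main cardiac myosin chain of adult mice, was at 7.09, the atrial peptide Nppa at 5.55 and the troponin Tnni3 at 3.41, while Myh7, another cardiac myosin chain, was at -0.97. The size of the first differences depended on the processing: Myh6 was at 5.99 when dim probes were kept, and with normexp Nppa was at 4.18 and Tnni3 at 2.70. The oxygen carrier Mb read 1397 on the transgenic array, while on the C57BL6/N array (8.46) it fell short of the flag for well above background, at least 106-fold higher. Sln, a regulator of the calcium pump in atria, was at least 283-fold higher.

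The mitochondrial partners of muscle were less uniform. Ckmt2, the mitochondrial creatine kinase of striated muscle, read 654 on the transgenic array against 3.90 on the C57BL6/N array, not well above background there, at least 49.4-fold higher. Both arrays measured 8 other mitochondrial or fuel-handling genes abundant in muscle. Their median was 0.24, or 0.37 with Ckmt2 at its bound, and 2 passed 1.5-fold upward, 0 downward. Idh3a, of the citric acid cycle, was at 0.75 and the uncoupling protein Ucp3 at 0.60, which turned to -0.54 when dim probes were kept. Slc25a4, the muscle-type ADP/ATP carrier, was at 0.41, Fabp3, the heart fatty acid binding protein, at 0.37 and Cpt1b, the muscle carnitine palmitoyltransferase, at 0.08. Skeletal muscle genes were centred at 0.23 (-0.01 with normexp), and 4 of 11 passed 1.5-fold upward, 0 downward. Tnnt3, a fast troponin, was at 2.82 (1.72 with normexp), Myh8, the perinatal myosin chain, at 2.68 (1.41 when dim probes were kept) and Acta1, skeletal actin, at 2.03. Ckm, the muscle creatine kinase, read 28.0 on the transgenic array against 5.55 on the C57BL6/N array, again not well above background there, at least 2.11-fold higher. Myh4, a defining fast myosin, was not well above background on either array, nor were Myh1, Myh2 and Mylpf of the same list. Tnni2 was at -0.03, Tnnc2 at -0.19 and Mylk2 at -0.08, while 8 of the 11 were above 0. The summed signal of the skeletal list, dim probes included, was 2.16 on the transgenic array and 1.58 on the C57BL6/N array.

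Defining transcripts of brown fat, the other tissue known for Cox6a2, Cox7a1 and Cox8b, were also above background on the transgenic array. Ucp1, the uncoupling protein that makes heat in brown fat, read 154 there against 4.22 on the C57BL6/N array, not well above background there, at least 11.7-fold higher. Elovl3, a fatty acid elongase of brown fat, was at least 3.60-fold higher, again from the transgenic array alone. Cidea, a lipid droplet protein, read 902 on the transgenic array and 207 on the C57BL6/N array, at 1.98. Slc27a2, a fatty acid transporter, was at 1.59, and Prdm16, a regulator of brown fat identity, was at -0.68 (-0.54 with normexp, short of 1.5-fold). Besides the subunits, both arrays measured 13 brown fat genes, of which 4 passed 1.5-fold upward and 1 downward. Their median was 0.08, or 0.20 with bounds included. The summed signal of this list was 3.97 on the transgenic array and 3.14 on the C57BL6/N array.

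General fat transcripts differed more. Past 1.5-fold, 9 of 16 genes were higher and 0 lower, and the median was 0.69 (0.78 with bounds). Cfd, the protease adipsin, was at 9.62 and Car3, a carbonic anhydrase of fat and muscle, at 7.65. Cfd read 26422 on the transgenic array and 30.3 on the C57BL6/N array, and Car3 read 5631 on the transgenic array and 25.3 on the C57BL6/N array. With normexp Cfd was at 8.12 and Car3 at 5.67. Adipoq, the fat hormone adiponectin, was at least 76.1-fold higher and Plin1, which coats lipid droplets, at least 18.7-fold. The summed signal was 63.8 on the transgenic array and 22.1 on the C57BL6/N array. Lung identity genes went the other way, with 0 of 10 above 0, a median of -0.37 and a summed signal of 710 on the transgenic array and 875 on the C57BL6/N array. The part of heart, skeletal muscle and fat RNA in the differences of Cox8b and Cox7a1 was not tested, and these tissues cannot be told apart from 2 arrays.

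**Figure D4:**
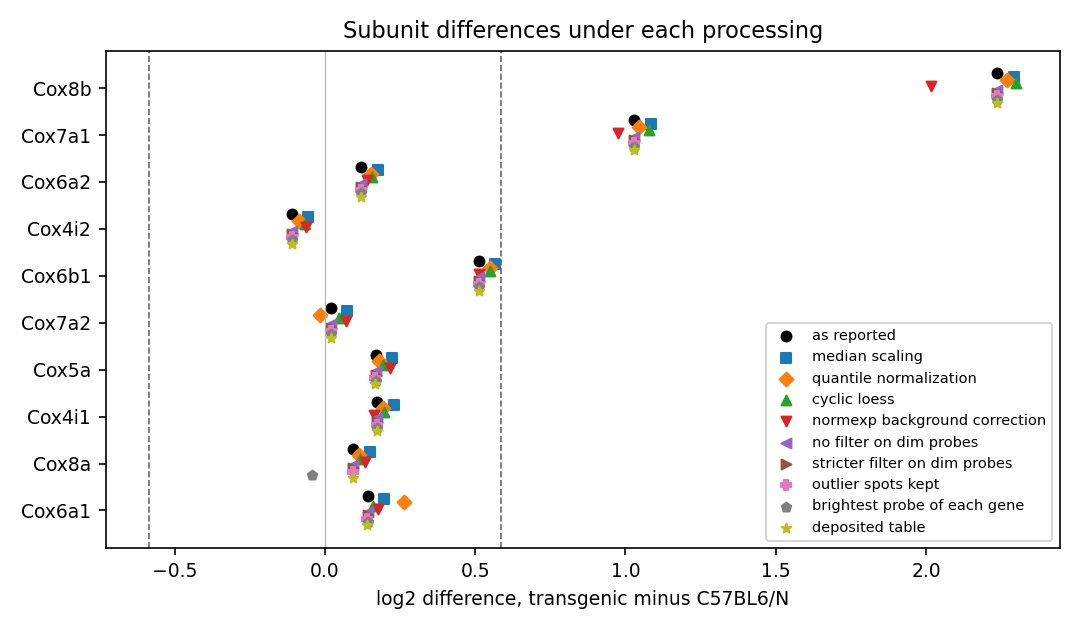
Log2 difference of each subunit gene, transgenic minus C57BL6/N, as reported (black circles) and under 9 other ways of processing. Dashed lines mark 1.5-fold. Cox8b stays between 2.02 and 2.30 and Cox7a1 between 0.97 and 1.08, and no other member crosses a dashed line.

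Processing changed the members little, as the plot of differences under each processing shows. Cox8b ranged from 2.02 to 2.30 over 9 alternatives and Cox7a1 from 0.97 to 1.08. Cox6a2 ranged from 0.12 to 0.18, and Cox4i2 stayed below 0, from -0.11 to -0.05. Cox6b1 ranged from 0.51 to 0.57 and did not reach 1.5-fold in any of them.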

How the data were processed

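The labels give 1 one-colour (Cy3) array per group of total RNA extracted with Trizol. Per the file headers, intensity per spot was measured with Agilent Feature Extraction 11.5.1.1, and the deposited processed signal had background subtracted and trends removed, with no normalization between arrays. Both arrays shared slide and scan. The table deposited for the series holds intensity values that equalled the processed signal within 0.1% at all 39030 single-spot probes of each array.

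Control and outlier spots were left out, log2 signals averaged per probe, and each array's 75th percentile subtracted. A probe was usable if, on each array, 50% or more of its spots were flagged well above background and none was saturated. A gene's value was the mean of its usable probes. No spot was saturated. Probes were named by RefSeq accession (gene table of GRCm38.p6; the headers name mm9, so that table gave names and overlaps only), which matched 27508 of 39429 probes (69.8%). For a gene seen by 1 array only, a bound was taken from its brightest probe as that value over the higher of the other array's lowest signal well above background and the dim signal. Summed signals add scaled linear values over all genes of a list with a probe. Each gene entered these sums with the mean log2 value of all its probes, usable or not. A dim probe thus lowers the part of its gene in a sum.

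The members and gene lists were chosen with earlier results of these data known. Beside all members, named genes were up to 2 highest and 2 lowest past 1.5-fold per list, the 2 largest bounds, and fixed markers. Others (Cox5b, Surf1, Sco2, Slc25a4, Fabp3, Cpt1b, Ppargc1a, Higd1a, Hspb1, Cox7b2, Cox8c and overlapping genes) were chosen after their values were seen. So were Cox16, Myl2, Gja5, Myh1, Myh2, Mylpf, Tnni2, Tnnc2 and Mylk2. Steps were tested on simulated data. The 9 alternatives were median scaling, quantile normalization, cyclic loess, normexp (offset 50, median signals, without spots whose background reached their signal), no filter and a stricter filter on dim probes, outlier spots kept, the brightest probe, and the deposited table. Python 3.11.15, numpy 2.4.6, pandas 2.3.3, matplotlib 3.10.9, R 4.3.3 and limma 3.58.1 were used.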

Additional observations from a re-analysis of the deposited data

How the results depend on the processing

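No paired analysis was possible because each group has 1 array. The 2 members past 1.5-fold, Cox8b and Cox7a1, kept their direction and stayed past 1.5-fold under all 9 alternatives, and the median of the ubiquitous subunits ranged from 0.15 to 0.21. The count over all genes depended on dim probes and background: past 1.5-fold it was 4606 (2526 higher, 2080 lower) when dim probes were kept and 1670 (988 higher, 682 lower) with normexp, against 2869 (1582 higher, 1287 lower). Higher genes made up 66.5% after cyclic loess, against 55.1%. Of 38 named genes measured on both arrays and past 1.5-fold, 37 kept their direction in every alternative that could measure them, and 31 stayed past 1.5-fold in all of these. Ucp3 turned to -0.54 without the filter, where its dim probes enter the mean. Short of 1.5-fold were the lung gene Hopx at -0.57 with median scaling (against -0.63) and, with normexp, Cox10 at 0.12, Coa7 at 0.52, Kcnj8 at 0.52, Egln3 at 0.41 and Prdm16 at -0.54. The cardiac median ran from 1.36 (normexp) to 2.97 (no filter), and the skeletal muscle median was -0.01 with normexp, against 0.23. The cause was not tested. With 1 array per group, neither variation between animals nor the reliability of any difference can be judged.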

Other observations

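Targets of hypoxia-inducible factors, the transcription factors that respond to low oxygen and are known to induce the Cox4i2 gene, went both ways between the arrays. Of 15 measured, 4 were at least 1.5-fold higher on the transgenic array and 2 lower, with a median of 0.25. Ankrd37, an ankyrin repeat protein, was at 1.46, and Egln3, an oxygen-sensing prolyl hydroxylase, at 1.28 (0.41 with normexp). Vegfa, the vascular growth factor, was at -1.08 and the collagen prolyl hydroxylase P4ha1 at -0.84. Higd1a, a hypoxia-inducible partner of cytochrome c oxidase, was at 0.07.

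Among 89 measured genes of the muscle, fat, pericyte and smooth muscle lists, the differences closest to that of Cox8b were those of Plin4, a lipid droplet protein of fat cells, at 2.17 and Fabp4, the fatty acid binding protein of fat cells and macrophages, at 2.32. Closest to Cox7a1 were Myocd, a coactivator of cardiac and smooth muscle genes, at 0.94 and Dgat2, an enzyme of triglyceride synthesis, at 1.13. Closest to Cox6a2 were Pparg and Hhip, both at 0.13, although the 2 probes of Hhip disagreed, at -0.22 and 0.47, and closest to Cox4i2 were Abcc9 at -0.08 and Gucy1b1 at -0.14. These likenesses rest on a single difference between 2 arrays.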
